A study of Mus musculus with 36 samples.

Results

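The late genes are 18 of the 12394 genes read on the arrays whose level in wild-type mouse microglia was higher after 24 h of interferon beta (IFN-b) than before it, but not yet at 6 h. They were chosen by measured values. Each gene was read by 1 probe set, the one with the highest mean over 12 arrays (Usp18 knockout microglia and the 6 wild-type arrays deposited beside them). In those 6 wild-type arrays a gene had to gain at least 1 log2 unit at 24 h over 0 h, gain less than 0.5 at 6 h over 0 h, and lie above 6 at 24 h. Symbols starting with Slc, Psm, H2, C1q, Cts or Fcgr were left out, which removed 1 gene that met the other conditions, Ctsh (1.47 at 24 h, 0.46 at 6 h). Over all symbols, 262 genes were raised by 1 or more at 24 h with a level above 6. With the same symbols left out, 221 of these had gained 1 or more at 6 h already and are called here the genes raised at both times.

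The study asked what USP18 does in primary microglia and in BV-2 cells, an immortalised mouse microglial line. Untreated cells (0 h) were set beside cells given 500 U/ml of IFN-b 6 h or 24 h earlier, and their total RNA was measured on Affymetrix 3' arrays of 22690 probe sets, with 2 arrays labelled as biological replicates in each of 18 groups. Primary microglia came from wild-type (WT), Usp18 ko (KO) and USP18_C61A mice, the last carrying alanine in place of the catalytic cysteine. BV-2 cells had received control siRNA or siRNA against Usp18. Every WT title was deposited a second time, in another stretch of the series, for reasons the labels leave unstated: WT set 1 was deposited beside the KO arrays and chose the late genes, and WT set 2 was deposited beside the C61A arrays. No label names the animals, ages, or cultures behind an array, or whether one culture gave the 3 time points, so p-values measure the spread between these arrays.

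Type I interferon binds a receptor at the cell surface whose signalling switches on a large set of genes within hours. USP18 is itself induced by interferon, removes ISG15 from proteins and, apart from that enzyme activity, sits on the receptor subunit IFNAR2 and damps signalling. A second, slower layer of genes depends on proteins made in the first hours or on the state the cell then enters. In microglia, interferon is known to alter surface receptors, antigen presentation and phagocytic behaviour.

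The deposited values ran from 1.66 to 14.03, a range of log2 intensities, and array medians ran from 5.59 to 5.83. A probe set's level depends on its own binding, so levels are compared between samples and not between genes. Usp18 read 3.77 to 6.42 on the 6 KO arrays, against 5.68 to 12.56 on WT set 1. In BV-2 cells labelled Usp18 siRNA the transcript was not lower beyond the spread (24 h difference -0.34 ± 0.44 SE, adjusted p = 0.737 by limma). On 3 arrays the values went against their group. The WT set 2 array of 0 h, replicate 1, held Usp18 at 12.98 against 9.31 on replicate 2. The C61A array of 6 h, replicate 2, held it at 10.71 against 13.04. The array of BV-2 cells labelled Usp18 siRNA, 6 h, replicate 2, held C1qa, a complement gene of microglia, at 9.96, where replicate 1 held 3.93. Results that rest on these arrays are given with and without them. A microglia fit without them left out the WT set 2 and the C61A array together, and a BV-2 fit the BV-2 array. This holds also where the text names only 1 microglia array as left out for standing apart. The mean of 12 microglia markers ran from 9.05 to 10.76 in primary microglia and from 6.79 to 7.53 in BV-2 cells, with 9.29 on the array that stood apart. It was lower at 24 h than at 0 h in KO (9.24 to 9.25 against 9.71 to 10.12) and C61A microglia (9.05 to 9.10 against 9.49 to 9.61). Since several late genes are best known from lymphocytes, 5 lymphocyte markers were read too: their mean lay between 3.41 and 4.68 on every array, below all array medians. Cd79a and Cd3e, which mark B and T cells, did not pass 4.51 and 5.26 on any array, and Ms4a1, another B cell gene, read 4.24 and 3.53 at 0 h, 5.50 and 3.73 at 6 h, and 6.18 and 5.02 at 24 h in KO. It did not pass 3.97 on any array outside KO. In KO microglia the lymphocyte mean was 3.96 to 4.22 at 0 h and 4.30 to 4.68 at 24 h. The mean of 5 border macrophage markers in WT set 1, the arrays of the rule, went from 6.77 to 7.26 at 0 h over 6.59 to 7.09 at 6 h to 5.57 to 5.99 at 24 h. The part of these markers in the results was not tested. In these bulk samples fewer cells of a type and less RNA per cell cannot be told apart.

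Promoters were looked at because the members were chosen for moving together. RefSeq promoters (GRCm38.p6, 250 bases before to 50 after an annotated start) were held for 14 of the 18 genes, and 5 short motifs were searched on both strands. The core of the interferon-stimulated response element, GAAANNGAA, was in none of the 14, against 9.76% of all 27025 genes with a promoter in the table. The ETS-IRF core GGAANNGAA, read by PU.1 together with an interferon regulatory factor, was in 3 (Pld4, Cd22 and Nosip) against 9.42%. The STAT element TTCNNNGAA was in 1 (F9) against 9.55%, the PU.1 element GAGGAAGT in 2 (Pld4 and Fcrl1) against 3.69%, and the E-box CACGTG in 1 (Ppfia4) against 8.09%. A match describes letters and no binding was measured. Shown are the promoters of the member with the largest rise, of the pair whose late shape came back in other microglia, and, for contrast, of Hacd4, which held no match. They lie at chr12:112760405-112760704 (Pld4, plus strand), chr7:30878979-30879278 (Cd22, minus), chr3:87376137-87376436 (Fcrl1, plus) and chr4:88438866-88439165 (Hacd4, minus), and are written 5′ to 3′ on the gene's strand with matches in capitals. In Pld4 the capitals join a PU.1 and an ETS-IRF match that overlap, in Cd22 they hold overlapping ETS-IRF matches, and in Fcrl1 a PU.1 match on the other strand.
Pld4: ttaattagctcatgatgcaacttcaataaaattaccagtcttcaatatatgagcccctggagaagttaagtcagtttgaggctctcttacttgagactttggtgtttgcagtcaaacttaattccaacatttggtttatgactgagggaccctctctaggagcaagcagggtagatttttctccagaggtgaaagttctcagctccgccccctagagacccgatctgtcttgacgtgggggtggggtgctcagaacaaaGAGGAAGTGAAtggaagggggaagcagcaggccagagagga
Cd22: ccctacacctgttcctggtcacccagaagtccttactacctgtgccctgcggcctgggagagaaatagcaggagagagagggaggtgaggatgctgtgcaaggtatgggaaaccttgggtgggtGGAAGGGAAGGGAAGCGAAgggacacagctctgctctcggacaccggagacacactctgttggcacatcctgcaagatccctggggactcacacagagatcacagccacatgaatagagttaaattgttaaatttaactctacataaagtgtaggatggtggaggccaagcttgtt
Fcrl1: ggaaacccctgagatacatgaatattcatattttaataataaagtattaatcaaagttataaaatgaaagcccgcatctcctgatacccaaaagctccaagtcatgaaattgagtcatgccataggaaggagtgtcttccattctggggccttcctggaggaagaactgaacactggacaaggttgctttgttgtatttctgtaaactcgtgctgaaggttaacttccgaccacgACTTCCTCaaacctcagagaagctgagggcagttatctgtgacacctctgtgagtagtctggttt
Hacd4: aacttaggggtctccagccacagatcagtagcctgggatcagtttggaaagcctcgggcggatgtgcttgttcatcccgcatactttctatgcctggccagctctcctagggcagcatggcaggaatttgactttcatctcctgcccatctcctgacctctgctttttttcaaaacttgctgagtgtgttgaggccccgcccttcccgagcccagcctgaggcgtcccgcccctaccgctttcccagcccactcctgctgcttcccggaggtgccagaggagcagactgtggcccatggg

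In WT set 1, whose values chose the members, the median rise at 24 h was 1.21 log2 units (range 1.01 to 2.34), and the median at 6 h was -0.03. These values are a description and were not tested. By role, 6 members are receptors or membrane proteins of leukocytes, 4 are enzymes, 4 belong to the cytoskeleton or to scaffolds, 3 act on ubiquitin, chromosomes or transcription, and 1 is a coagulation factor.

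Among the membrane proteins, Cd22, an inhibitory receptor that binds sialic acid, read 7.21 and 7.22 at 0 h, 7.22 and 7.57 at 6 h, and 9.06 and 9.58 at 24 h. Its second probe set took the same course (4.61 to 6.89 on average from 0 h to 24 h). Ly9, a receptor of the SLAM family, read 7.66 and 8.26 at 0 h, 7.81 and 7.69 at 6 h, and 9.34 and 9.77 at 24 h. Both genes were thus high at 24 h alone, with no overlap of arrays. Lst1, a small transmembrane protein of leukocytes, read 10.42 and 10.38 at 0 h and 11.90 on both arrays at 24 h, but its 6 h arrays disagreed (10.995 and 9.52). Lair1, an inhibitory receptor for collagen, read 8.47 and 8.66 at 0 h, 8.81 and 8.97 at 6 h, and 9.68 and 9.88 at 24 h. Fcrl1, a receptor of the Fc receptor-like family, dipped from 6.79 and 6.60 to 6.12 and 6.07 before it reached 7.69 and 8.11. Cd52, a glycoprotein anchored in the leukocyte membrane, read 11.91 and 12.22 at 0 h and 13.12 and 13.05 at 24 h.

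Of the enzymes, Pld4, an exonuclease of endosomes and lysosomes that degrades single-stranded nucleic acid, gained most of all members. It read 9.02 and 9.05 at 0 h, 8.44 and 9.18 at 6 h, and 11.28 and 11.47 at 24 h. Hacd4, a dehydratase of fatty acid elongation, was lower at 6 h (9.07 and 8.91) than at 0 h (9.51 and 9.97) and then reached 11.03 and 10.87. Vnn3, of the vanin family of pantetheinases, went from 5.83 and 5.60, close to the array medians, to 6.96 and 6.95. St3gal6, which adds sialic acid to glycans, was the least clear: its 0 h arrays read 6.93 and 8.33, and 24 h (8.44 and 9.05) overlapped with 6 h (7.67 and 8.46).

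The cytoskeletal and scaffold genes shared a dip at 6 h, except Ppfia4. Arhgap4 went from 6.47 and 6.57 to 5.78 and 5.86 and then to 7.82 and 7.59. Pdlim2, an adaptor that also directs breakdown of NF-kB and STAT proteins, went from 6.39 and 6.62 to 5.74 and 5.47 and then to 7.85 and 7.93. Myo1g, a membrane myosin of blood cells, gained 1.01 at 24 h after -0.53 at 6 h, and Ppfia4, a liprin scaffold, gained 1.15 after 0.09. Nosip, a ubiquitin ligase that binds nitric oxide synthases, read 7.18 and 6.97 at 0 h and 8.35 and 8.49 at 24 h, and a second probe set gained 1.17. Ncapg2, a subunit of condensin II that compacts chromosomes, read 8.66 and 8.18 at 0 h, 9.02 and 8.76 at 6 h, and 10.08 and 9.40 at 24 h. Klf2, a transcription factor of quiescent leukocytes, gained 1.03, and F9, coagulation factor IX, known from the liver, went from 5.35 and 5.18 to 6.37 and 6.18. Over all members, 24 h lay above 0 h without overlap in all 18 (27.0% of all genes), and above 6 h in 17 (29.8%), counts that the choice of the genes favoured.

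The thresholds passed close to other genes. Just inside the one at 24 h were F9 (1.01), Myo1g (1.01) and Cd52 (1.02), and just outside were Cox6a2 (0.99), Cd5l (0.99) and Cd300ld (0.97). At 6 h the nearest inside were Ncapg2 (0.47), St3gal6 (0.44) and Cd52 (0.43), and outside Epb41l1 (0.53), Napsa (0.54) and Aif1 (0.56). For the level at 24 h, F9 (6.27) and Vnn3 (6.96) were nearest inside and Cyp4f18 (5.50) and Cryba4 (5.28) outside. In 5 members with more than 1 probe set, all 6 other probe sets gained at 24 h and 2 had the shape of the rule.

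**Figure D1:**
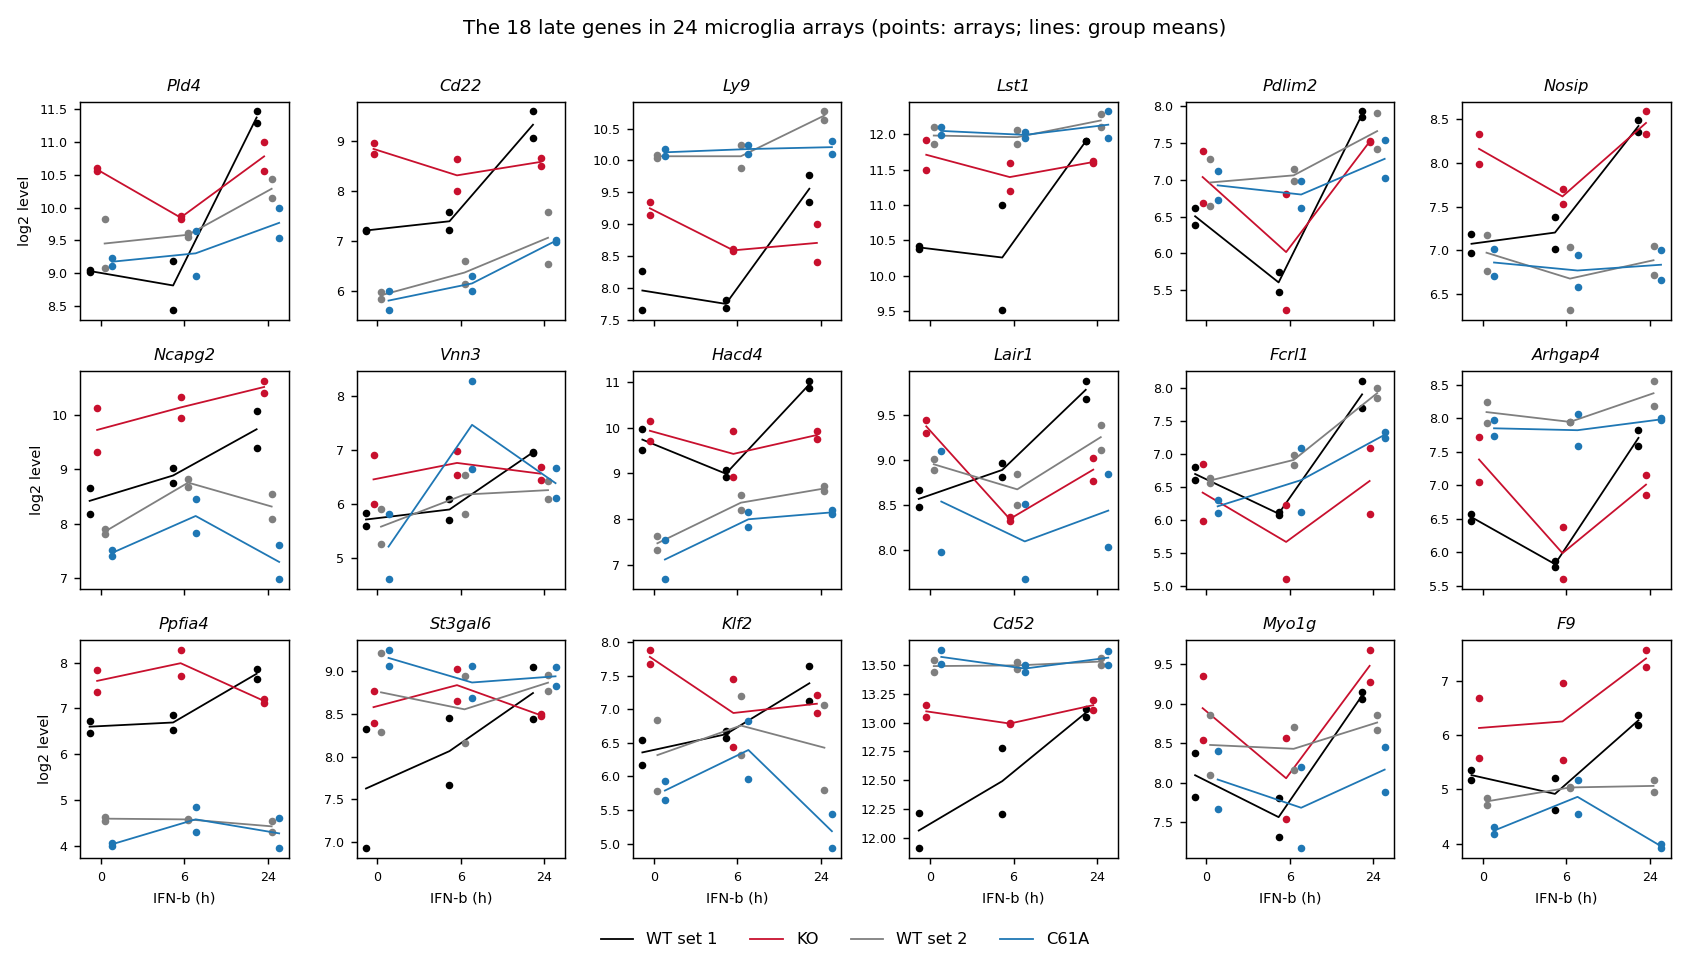
Log2 level (vertical axes, a scale of its own for each gene) of the 18 late genes at 0 h, 6 h and 24 h of IFN-b (evenly spaced, not to scale) in WT set 1, KO, WT set 2 and C61A microglia; points are arrays and lines join the means of 2 arrays. The black lines start low and rise after 6 h by the choice of the genes. The red KO lines start above them for 17 of 18 genes, a count that this choice favoured. The gray and blue lines rise with the black ones for Cd22 and Fcrl1.

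In KO microglia 0 of 18 late genes were called at 24 h of IFN-b against 0 h, where 2.17% of all genes were. At that share 0 of 18 says little. The levels beside WT set 1 come first and are a description with no test, since the rule itself made the WT arrays low at 0 h and high at 24 h. The KO mean at 0 h was above the WT set 1 mean at 0 h for 17 of 18 members, by a median of 0.97, and nearer to the WT mean at 24 h than at 0 h for 15. The exceptions were Pdlim2, Hacd4 and Fcrl1. Untreated KO arrays lay above untreated WT set 1 arrays without overlap in 16 members, against 26.2% of all genes. Nothing is read from these counts. Untreated KO was below WT at 24 h in 16 members and above it in 2, where 45.3% of all genes were above. Over all 18 the median difference was -0.28 (range -1.49 to 0.39). The mean of 4 monocyte and granulocyte markers was 4.71 to 5.32 in untreated KO against 3.91 to 3.96 in untreated WT set 1, and that of the border macrophage markers 4.40 to 5.69 against 6.77 to 7.26. Their part in the difference was not tested.

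The course of KO cells under IFN-b was tested, since the thresholds of the rule used no KO array. The test was not fully apart from the choice of the genes. KO arrays had helped choose the probe sets, and the spread came from all microglia arrays, those of the rule included. Cd22 read 8.95 and 8.73 at 0 h, 8.63 and 7.995 at 6 h, and 8.49 and 8.66 at 24 h, high throughout. Pld4 read 10.56 and 10.61, then 9.82 and 9.88, then 10.56 and 11.01, and so was lowest at 6 h. Ly9 read 9.15 and 9.35 at 0 h, 8.61 and 8.57 at 6 h, and 8.40 and 9.01 at 24 h, below its untreated level at both times. Lst1 stayed between 11.20 and 11.92 on all 6 arrays, and Cd52 between 12.99 and 13.19.

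Of the 18 members, 0 were called at 24 h against 0 h in KO (limma, adjusted p under 0.05 over all 12394 genes), where 2.17% of all genes were called. The median change was -0.02, against 0.01 over all genes, and 3 members had an unadjusted p under 0.05, 16.3% of all genes being under it. F9, nearest to the threshold (1.28 ± 0.39, SE, adjusted p = 0.0961), read 6.68 and 5.58 at 0 h, 6.96 and 5.54 at 6 h, and 7.25 and 7.57 at 24 h, so its replicates disagreed until 24 h. It was the 1 member that kept the shape of the rule in KO (0.476% of all genes did), and without KO 0 h replicate 1 it was called (1.83, adjusted p = 0.0295). The 0 calls also depended on the replicate number. With it as a block F9 (adjusted p = 0.0235 as a random block, 0.0271 as a fixed one) and Ncapg2 (0.79, adjusted p = 0.0403 and 0.0167) were called higher at 24 h, while the share called of all genes went to 9.56% and 10.7%. Same-numbered KO arrays deviated together (correlations of 0.64 to 0.77 between times), but the line has only 2 such pairs. Arrays at 24 h lay above those at 0 h without overlap in 3 members, against 24.0% of all genes, and below in 5, against 21.3%.

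At 6 h the values in KO were mostly below those at 0 h, in 13 of 18 members, with a median of -0.54 against 0.01 over all genes. Genes with a level above 6, as the members were chosen to have in WT, had a median of -0.17, and 34.2% of them were above 0, beside 5 of 18 members. Arhgap4 was the 1 member called (4.48% of all genes were): its 0 h arrays read 7.72 and 7.05 and its 6 h arrays 6.37 and 5.60. It fell by 1.40 ± 0.26 (SE, limma, adjusted p = 0.0108). The call was lost with arrays centred on their medians (-1.29, adjusted p = 0.0507) and without KO 0 h replicate 1 (-1.06, adjusted p = 0.0504). A further 5 members had an unadjusted p under 0.05 (19.4% of all genes had), with negative values, among them Lair1 (-1.03, adjusted p = 0.0891), which read 9.44 and 9.30 at 0 h and 8.32 and 8.37 at 6 h. From 6 h to 24 h the median was 0.39 against -0.01 over all genes, and 0 members were called where 1.86% of all genes were, with 8 at an unadjusted p under 0.05 (14.1% of all genes). The nearest was Arhgap4 (1.02 ± 0.26, adjusted p = 0.057), whose 24 h arrays (7.15 and 6.86) returned toward the level at 0 h. Without the arrays that stand apart, Arhgap4 (adjusted p = 0.043) and Pld4 (0.93, adjusted p = 0.0418) rose between 6 h and 24 h, where 3.6% of all genes were called. Without KO 6 h replicate 1, which left 1 array at 6 h, Arhgap4 changed by 1.41, and no count is read from that fit. With the replicate number as a random block 7 members were called (6 of them higher at 24 h), and 6.97% of all genes. As a fixed block 5 members, all higher, were called, and 6.76% of all genes.

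At 24 h, KO arrays lay below WT set 1 arrays without overlap in 11 members, against 31.4% of all genes, and above in 3, against 27.6%, again a description because the rule set the WT level. The median difference was -0.38. The lowest values were those of Fcrl1 (7.09 and 6.09 in KO against 7.69 and 8.11 in WT, -1.31) and Hacd4 (9.74 and 9.94 against 11.03 and 10.87, -1.11), and F9 had the highest.

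**Figure D2:**
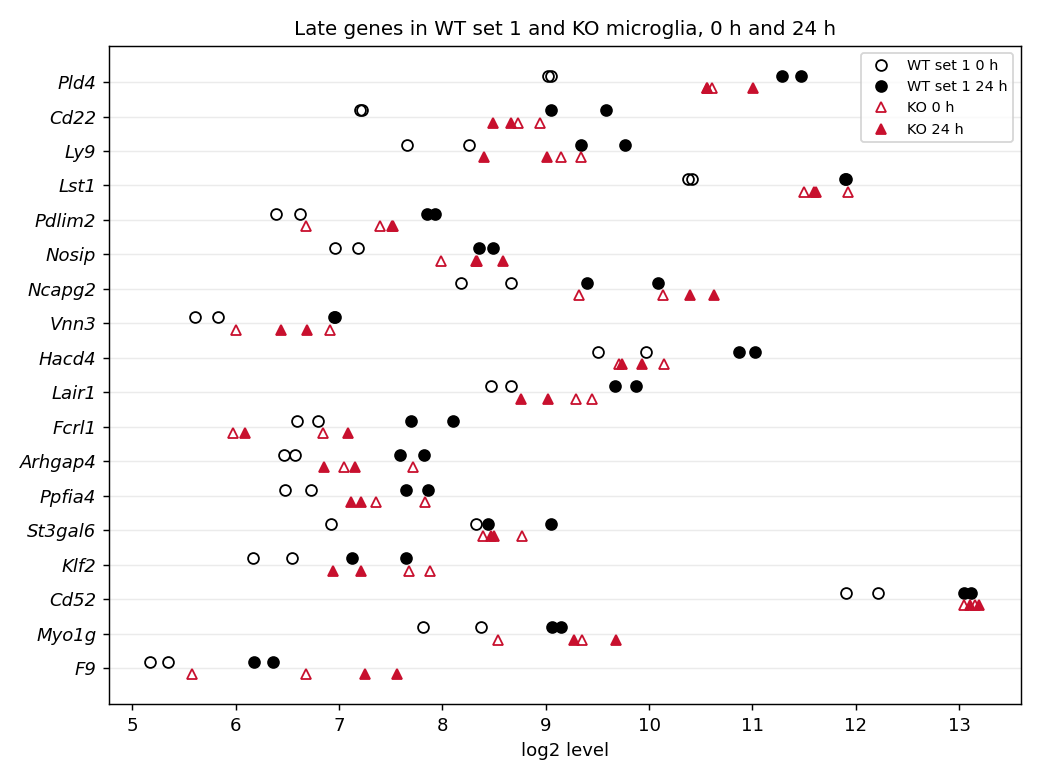
Log2 level (horizontal axis) of each late gene on the 0 h (open) and 24 h (filled) arrays of WT set 1 (circles) and KO (triangles) microglia, 2 arrays each. In most rows the open triangles lie near the filled circles and the filled triangles do not move on to the right. In Fcrl1, Hacd4 and Pdlim2 the open triangles lie near the open circles. The rule placed the circles, so their distance from the triangles is a description.

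WT set 2 shares the genotype and treatment of WT set 1 and was not used by the rule. Its untreated levels differed from those of set 1: in 5 members (Ly9, Lst1, Arhgap4, St3gal6 and Cd52) the mean at 0 h was already at or above the mean of set 1 at 24 h, and in 9 it was below that of set 1 at 0 h. Ly9 for instance read 10.09 and 10.04 at 0 h and Cd52 13.54 and 13.44, while Ppfia4 read 4.64 and 4.55 and Hacd4 7.32 and 7.62. At 0 h the mean of 9 astrocyte markers was 6.55 to 8.03 in set 2 against 5.45 to 5.60 in set 1, and that of the border macrophage markers 3.63 to 3.99 against 6.77 to 7.26. Their part in these differences was not tested.

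Cd22 read 5.86 and 5.99 at 0 h, 6.60 and 6.15 at 6 h, and 7.58 and 6.55 at 24 h in WT set 2. Fcrl1 read 6.63 and 6.56 at 0 h, 6.98 and 6.84 at 6 h, and 7.99 and 7.85 at 24 h. These 2 members kept the shape of the rule, which 0.250% of all genes had in this set. Hacd4 reached 8.62 and 8.72 at 24 h but was already up at 6 h (8.53 and 8.19), so it had gained before the late window.

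By the test across all genes, 0 members were called at 24 h against 0 h (limma), with 5 at an unadjusted p under 0.05 (7.52% of all genes), and 0.0161% of all genes were called. The median was 0.29 against 0.02 over all genes, and 16 of 18 values were above 0, as were 53.3% of all genes. The 5 were Fcrl1 (1.32 ± 0.39, SE, adjusted p = 0.379), Hacd4 (1.20 ± 0.31, adjusted p = 0.267), Cd22 (1.15 ± 0.30, adjusted p = 0.269), Pld4 (0.83, adjusted p = 0.497) and Ly9 (0.64, adjusted p = 0.512). With the replicate number as a block, Fcrl1 was called (adjusted p = 0.0437 as a random block, 0.00866 as a fixed one), and Cd22 with the fixed block (adjusted p = 0.0337), where 0.541% and 3.03% of all genes were called. Without the untreated array that stood apart the median was 0.37, Fcrl1 changed by 1.36 (adjusted p = 0.252), Cd22 by 1.08, Hacd4 by 1.05 and Pld4 by 0.46, still with 0 calls though 1.63% of all genes were then called. Klf2 (0.11, then -0.42) and Myo1g (0.28, then -0.10), neither called, changed sign. Arrays at 24 h lay above those at 0 h in 10 members, against 21.9% of all genes, and below in 1, against 18.4%. Astrocyte markers moved within this line too. Gfap read 5.80 and 8.79 at 0 h and 3.89 and 6.30 at 24 h in WT set 2. Without the arrays that stand apart the 9 astrocyte markers had a median change of -1.62 at 24 h. Their part in the values of the late genes was not tested. At 6 h against 0 h, 0 members were called (0.00807% of all genes), with 2 at an unadjusted p under 0.05 (3.67% of all genes) and a median of 0.05. Without the array that stood apart 0 were called and the median was 0.04, while 1.93% of all genes were called and 7 members changed sign. From 6 h to 24 h 0 were called, as were 0 of all genes, with 4 at an unadjusted p under 0.05 (5.16% of all genes) and a median of 0.31.

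In C61A microglia the enzyme activity of USP18 is lost while the protein remains. Of 18 late genes 1, Cd22, was called at 24 h against 0 h, where 4.76% of all genes were. A single call is near that share, and nothing is read from the count. Cd22 rose with the shape it had in WT. It read 5.64 and 6.00 at 0 h, 6.02 and 6.30 at 6 h, and 7.03 and 6.98 at 24 h, with no overlap of 24 h and earlier arrays. The rise was 1.19 ± 0.30 (SE, limma, adjusted p = 0.0349). It lost the call, at 1.01 to 1.37, when any 1 of the 4 arrays behind it was left out, with arrays centred on their medians (1.26, adjusted p = 0.0576) and with only the 18 arrays the rule did not use (adjusted p = 0.079). Fcrl1 read 6.10 and 6.30 at 0 h, 6.12 and 7.08 at 6 h, and 7.24 and 7.34 at 24 h (1.08 ± 0.39, adjusted p = 0.133). With the replicate block Fcrl1 (adjusted p = 0.0181 as a random block, 0.00431 as a fixed one) and Hacd4 (1.03, adjusted p = 0.0253 and 0.0397) were called too, where 12.7% and 13.7% of all genes were. Cd22 and Fcrl1 again were the 2 members with the shape of the rule, against 0.944% of all genes.

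Hacd4 read 7.54 and 6.69 at 0 h, 7.83 and 8.16 at 6 h, and 8.11 and 8.19 at 24 h. It gained 1.03 ± 0.31 at 24 h (SE, limma, adjusted p = 0.0692). Most of that gain was there at 6 h (0.88, or 0.71 without the array that stood apart). Vnn3 had its highest value of all microglia, 8.28, on the 6 h array that stood apart, against 6.65 on the other. Ly9 (10.07 to 10.31), Lst1 (11.95 to 12.32) and Cd52 (13.44 to 13.63) were high and flat on all 6 arrays. Klf2 read 5.92 and 5.65 at 0 h and 4.93 and 5.44 at 24 h, the lowest member at 24 h relative to its start (-0.61).

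At 24 h against 0 h 4.76% of all genes were called in C61A. The median over the late genes was 0.11 against 0.00 over all genes (-0.001), 4 members had an unadjusted p under 0.05 (18.9% of all genes), and arrays at 24 h lay above those at 0 h in 5 members (22.1% of all genes) and below in 3 (25.1%). Without the array that stood apart 7.96% of all genes and 1 member, Cd22, were called. In contrast to the late genes, 148 of the 221 genes raised at both times in WT set 1 rose in C61A with a median of 2.34, but both lists were chosen in WT set 1 and the difference between them was not tested. At 6 h against 0 h 0 members were called (0.0323% of all genes), with 4 at an unadjusted p under 0.05 (5.23% of all genes) and a median of 0.09. Without the array that stood apart the median turned to -0.08, again with 0 calls, and 3.16% of all genes were called. From 6 h to 24 h 0 were called (0.266% of all genes), with 5 at an unadjusted p under 0.05 (10.1% of all genes) and a median of 0.12. Without that array the median was 0.22, with 0 calls and 0.0484% of all genes called.

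Between C61A and WT set 2 no late gene was called, at 0 h (0.00807% of all genes called, 1 member and 4.09% of all genes at an unadjusted p under 0.05) or at 24 h (0.0161% called, 5 members and 6.26% at an unadjusted p under 0.05). At 24 h 15 of 18 values were below 0 and 3 above it, where 46.0% of all genes and 39.0% of genes with a level above 6 were above 0. The median was -0.44, against -0.02 over all genes. C61A arrays lay below WT arrays without overlap in 10 members, against 22.3% of all genes, and above in 0, against 14.9%. Klf2 (4.93 and 5.44 against 5.80 and 7.06), F9 (3.99 and 3.92 against 5.17 and 4.96) and Ncapg2 (7.62 and 6.99 against 8.55 and 8.09) had the lowest values, -1.24, -1.11 and -1.02. On these arrays F9, and Klf2 in C61A, read below every array median, where a change is hard to read. The lowest adjusted p was 0.547. At 0 h the median was already -0.32, or -0.35 without the WT array that stood apart (0 members and 0.0242% of all genes called). Without the 3 arrays 0 members were called at 24 h either, with 0.758% of all genes.

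The response of KO was also set against those of the other lines as an interaction. KO minus C61A gave 0 calls among the members (0.0968% of all genes) and a median of -0.29, with 4 members at an unadjusted p under 0.05 (9.06% of all genes). Cd22, lower in KO by 1.45 in its response (-1.45 ± 0.42, SE, limma, adjusted p = 0.252), and F9, with 1.57, were 2 of these. KO minus WT set 2, a comparison added after the values were seen, gave 0 calls (0.0161% of all genes), a median of -0.44 and 3 members at an unadjusted p under 0.05 (9.16% of all genes). Without the array that stood apart the median was -0.38, with 0 calls and 0.613% of all genes called. Ly9 had the lowest adjusted p there (-1.18 ± 0.32, adjusted p = 0.188), and it was called with the replicate block (adjusted p = 0.0373), where 1.46% of all genes were. With 2 arrays a group these tests leave room for sizeable differences in either direction.

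**Figure D3:**
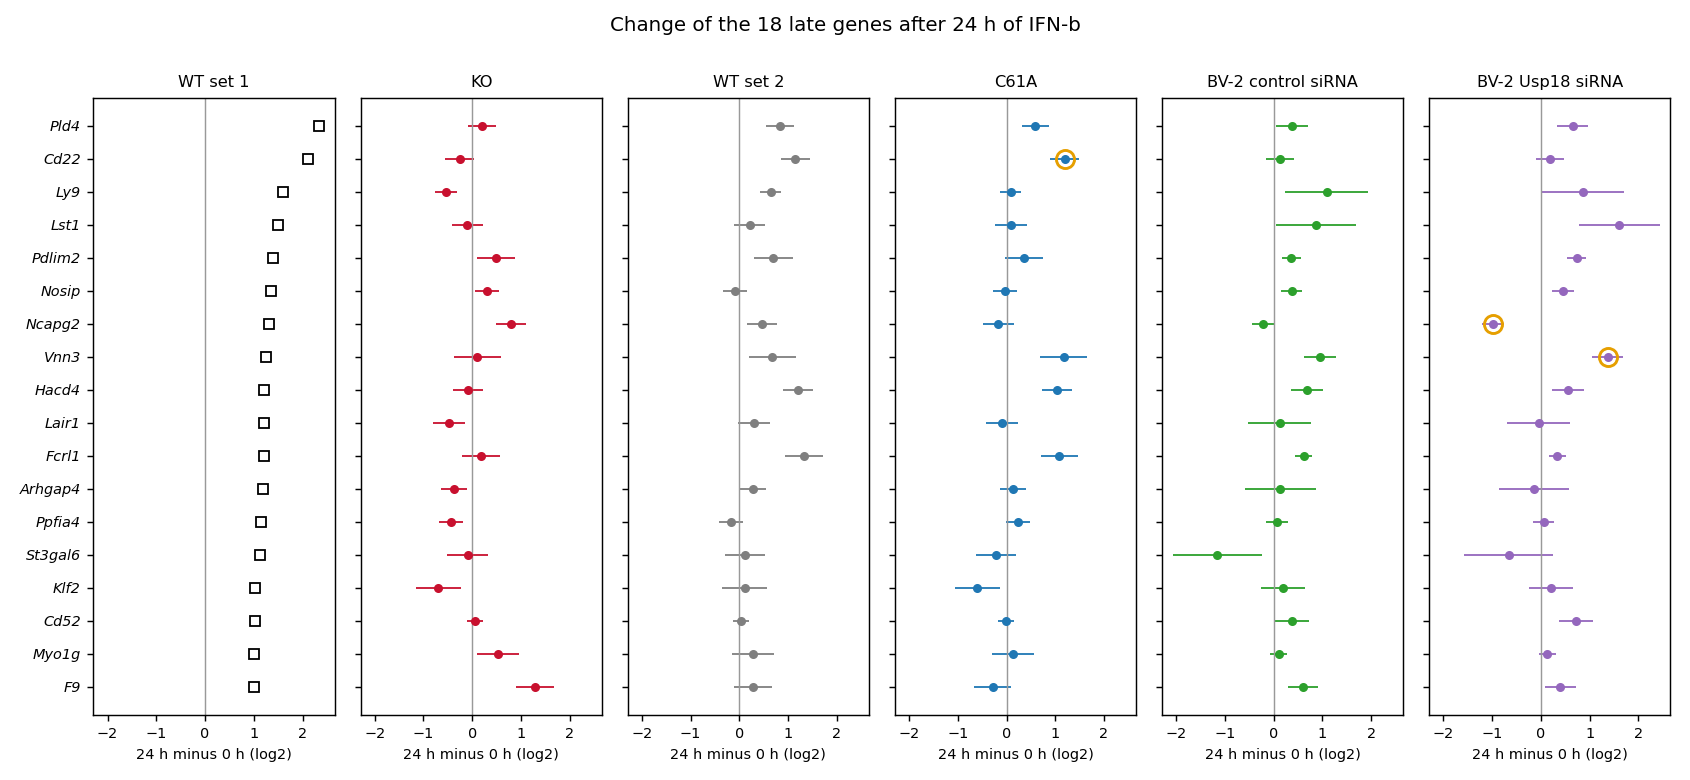
Change in log2 level from 0 h to 24 h (horizontal axes) of each late gene in 6 lines; points are differences of means of 2 arrays, bars the SE of the limma fit, squares without bars the WT set 1 values that chose the genes, and rings mark an adjusted p under 0.05. Rings are on Cd22 in C61A and on Vnn3 and Ncapg2 in BV-2 cells labelled Usp18 siRNA, the last to the left of 0.

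In BV-2 cells most late genes had slightly higher values at 24 h than at 0 h, few passed the test, and 3 were hardly read at all: Arhgap4, Ppfia4 and St3gal6 did not pass the array median on 2 arrays. Under control siRNA, Vnn3 read 9.68 and 9.16 at 0 h, 10.143 and 9.855 at 6 h, and 10.10 and 10.64 at 24 h. Fcrl1 read 6.56 and 6.86 at 0 h, 6.72 and 6.73 at 6 h, and 7.29 and 7.37 at 24 h, highest at the last time point. Lst1 went from 7.68 and 7.54 over 7.96 and 7.95 to 8.38 and 8.59, a stepwise course with no overlap between times. Cd22, at 6.52 and 6.62 at 0 h and 6.51 and 6.88 at 24 h, overlapped.

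The test gave 0 calls under control siRNA (0.234% of all genes), a median of 0.36 against -0.03 over all genes, and 2 members at an unadjusted p under 0.05 (6.62% of all genes), Fcrl1 (0.62 ± 0.18, SE, limma, adjusted p = 0.401) and Vnn3 (0.95, adjusted p = 0.561). Values were above 0 in 16 of 18 members, as they were in 43.9% of all genes. Arrays at 24 h lay above those at 0 h in 10 members (18.4% of all genes) and below in 1 (25.9%), and 0 members had the shape of the rule (0.153%). From 6 h to 24 h 0 members and 0 of all genes were called, with 1 member (4.17% of all genes) at an unadjusted p under 0.05.

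Under the label Usp18 siRNA, Vnn3 read 9.69 and 9.85 at 0 h, 10.24 and 9.27 at 6 h, and 11.10 and 11.17 at 24 h. It rose by 1.37 ± 0.32 (SE, limma, adjusted p = 0.0386) and was the 1 member with the shape of the rule (1.00% of all genes). Its flat mean at 6 h (-0.01 against 0 h) rested on the array that stood apart, which read 9.27. The other 6 h array, at 10.24, lay above both 0 h arrays. From 6 h to 24 h Vnn3 changed by 1.38 with both 6 h arrays and by 0.89 without the one that stood apart. Ncapg2 moved the other way, from 9.60 and 9.42 at 0 h over 9.02 and 9.20 at 6 h to 8.84 and 8.22 at 24 h. It fell by 0.98 ± 0.23 (adjusted p = 0.0383), where it had gained 1.32 in WT set 1. Of 11 cell cycle genes read, 8 fell there as well (median -1.28), and the part of a change in cycling in the value of Ncapg2 was not tested. Of all genes 6.46% were called. The calls of Vnn3 and Ncapg2 were lost when single arrays were left out. Vnn3 lost it without any 1 of its 4 arrays (1.29 to 1.45), and Ncapg2 without any 1 of 3 (-1.07 to -0.67), the exception being 24 h replicate 1.

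The median over the members was 0.37 against 0.03 over all genes, 3 had an unadjusted p under 0.05 (22.4% of all genes), and arrays at 24 h lay above those at 0 h in 9 members (28.4% of all genes) and below in 2 (25.6%). The array that stood apart carried several late genes at levels near those of primary microglia: St3gal6 at 7.97 against 4.20 on the other 6 h array, Arhgap4 at 6.95 against 4.24, Lst1 at 11.44 against 7.94, Ly9 at 9.38 against 6.08 and Lair1 at 7.66 against 5.22. Ctsh, the gene left out by its symbol, was at 9.75 there against 3.27. That array widened the spread of these genes throughout the BV-2 fit. Without it, Lst1 (7.73 and 8.04 at 0 h, 9.41 and 9.57 at 24 h) rose by 1.61 ± 0.16 (adjusted p = 0.00144) and Pdlim2 (6.41 and 6.37, then 7.04 and 7.21) by 0.73 ± 0.14 (adjusted p = 0.0168), so that 4 members were called, with 11% of all genes.

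From 6 h to 24 h 0 members were called (0.0726% of all genes), with 7 at an unadjusted p under 0.05 (13.8% of all genes) and a median of 0.21. The direction of several members here turned on which 6 h array was kept. Lst1 changed by -0.20 with both, by 1.55 without the array that stood apart (adjusted p = 0.0296) and by -1.95 without the other 6 h array (adjusted p = 3.3e-04). Without the array that stood apart Lst1 was the 1 member called, and 0.0726% of all genes were. Without the other 6 h array 6 members were called, Arhgap4, Lair1, Lst1, Ly9 and St3gal6 lower and Vnn3 higher at 24 h, with 5.49% of all genes. No direction is read from this comparison. At 24 h, Usp18 siRNA against control siRNA gave 0 calls (1.20% of all genes) and a median of 0.15, with 4 members at an unadjusted p under 0.05 (19.7% of all genes) and Ncapg2 the nearest (-0.97 ± 0.23, adjusted p = 0.0701). Without the array that stood apart, Lst1 (1.01, adjusted p = 0.018) and Pdlim2 (0.63, adjusted p = 0.0459) were higher under Usp18 siRNA, and 4.07% of all genes were called.

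**Figure D4:**
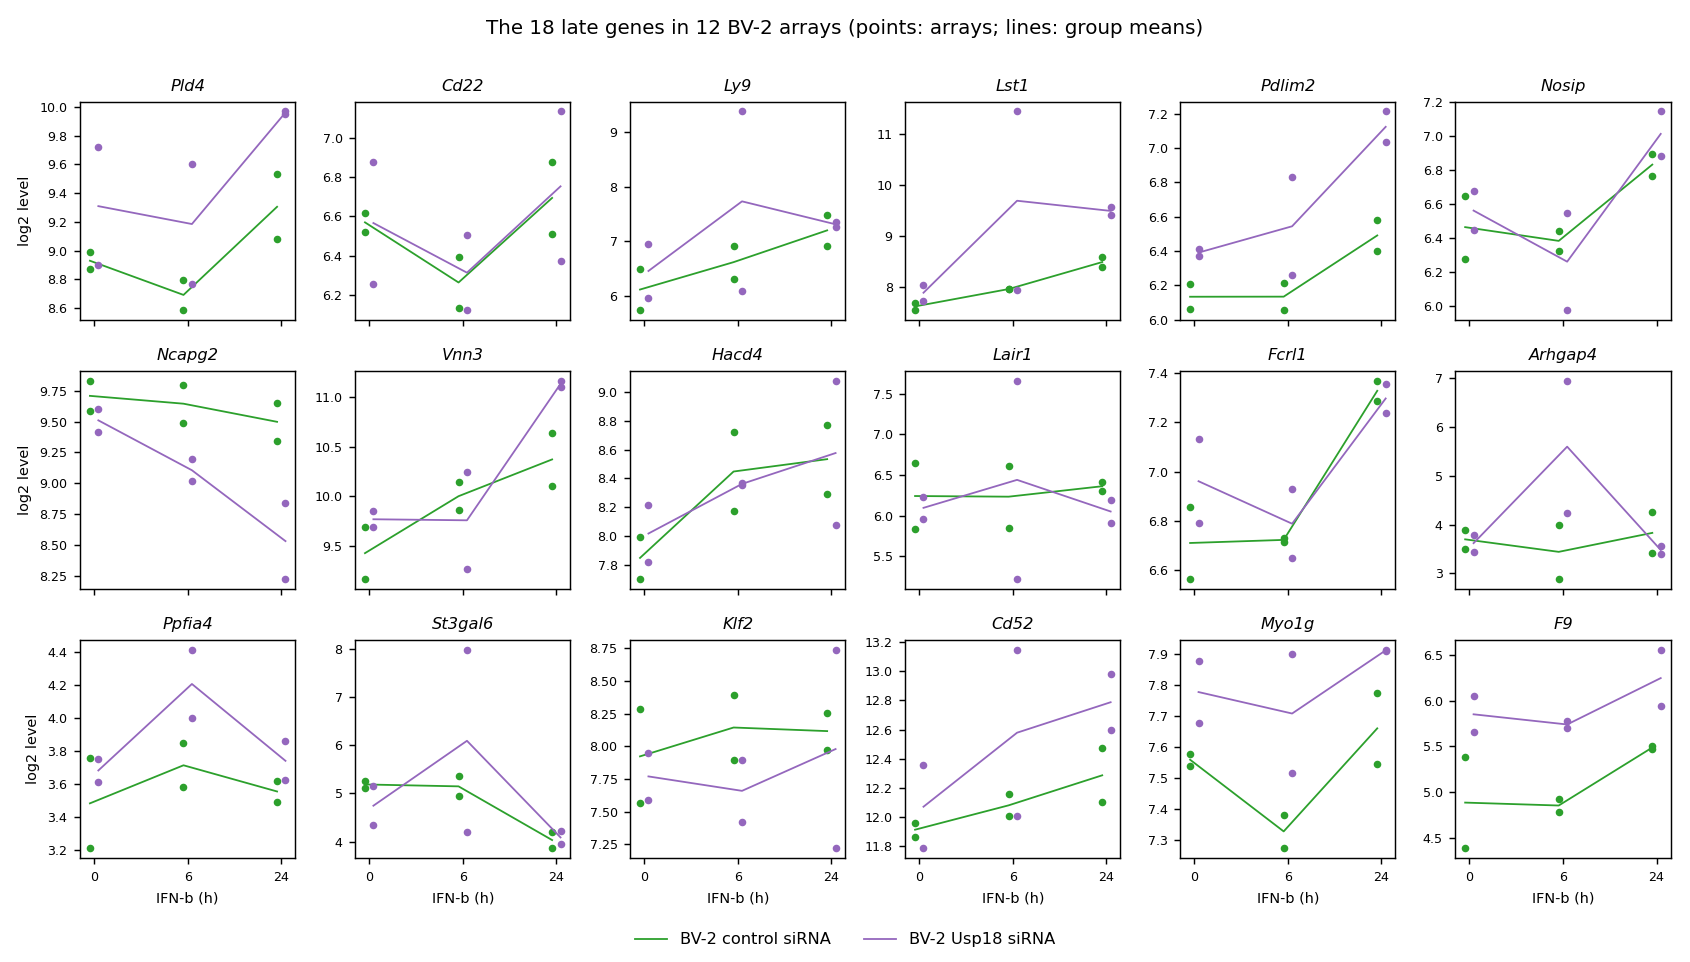
Log2 level (vertical axes, a scale of its own for each gene) of the late genes in BV-2 cells with control siRNA or labelled Usp18 siRNA at 0 h, 6 h and 24 h (evenly spaced); points are arrays and lines join the means of 2. One 6 h array labelled Usp18 siRNA lies far above its replicate for Ly9, Lst1, Lair1, Arhgap4 and St3gal6, and Ncapg2 descends to 8.84 and 8.22 at 24 h.

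Across the 5 lines other than WT set 1, 5 members (Pld4, Pdlim2, Vnn3, Fcrl1 and Myo1g) had a positive change at 24 h in every line, as had 10.3% of all genes. Myo1g was above 0 in WT set 2 only with the array that stood apart (0.28, and -0.10 without it). In 7 members (Pld4, Ly9, Pdlim2, Vnn3, Hacd4, Fcrl1 and F9) arrays at 24 h lay above those at 0 h in 3 or more lines, against 14.2% of all genes, and in 4 (Arhgap4, Ppfia4, St3gal6 and Klf2) in no line, against 38.6%. The 2 probe sets of St3gal6 disagreed. The one used changed by -0.09 in KO, 0.11 in WT set 2 and -0.21 in C61A, and the other by 0.37, 0.53 and 0.32. By role, the 6 membrane proteins were all above 0 in WT set 2 and in BV-2 control cells, and 2 of 6 were in KO. The 4 enzymes, by the probe sets used, were all above 0 in WT set 2 (0.11 to 1.20) and lay between -0.09 and 0.20 in KO. Nosip, Ncapg2 and Klf2 were all below 0 in C61A (-0.61 to -0.03), and 2 of the 3 were above 0 in each of the other lines. Klf2 was above 0 in WT set 2 only with the array that stood apart (0.11, and -0.42 without it).

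None of the 18 belonged to the gene lists that describe the known interferon response. The rule favoured this: it asked for a gain under 0.5 at 6 h and left out symbols such as H2, Psm and C1q. Nothing is read from that absence. Of 17 antiviral effectors on the array, 16 rose at 24 h in C61A (median 4.15), 17 in BV-2 cells labelled Usp18 siRNA (median 2.82), 8 in BV-2 control cells (median 3.13), 0 in WT set 2 (median 1.96) and 0 in KO (median 0.25). In WT set 2 2 genes were called in all. Without the 3 arrays that stand apart, among them the untreated WT set 2 array with high Usp18, 202 genes were called in WT set 2 and 16 of the 17 antiviral effectors rose there (median 3.85), while 17 rose in C61A and 1 in KO. Of 13 genes of the interferon receptor and STAT pathway, 7 rose in C61A, 6 in BV-2 cells labelled Usp18 siRNA, 1 in BV-2 control cells, and 0 in WT set 2 and KO, or 3 and 2 in the last pair without the arrays that stand apart. The genes raised at both times had medians of 0.53 in KO, 0.85 in WT set 2, 0.81 in BV-2 control cells and 1.93 in BV-2 cells labelled Usp18 siRNA, beside -0.02, 0.29, 0.36 and 0.37 for the late genes. No test of that difference was made, since both lists were set by the same 6 arrays.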

How the data were processed

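Values were used as deposited. Per the submitters' processing notes they were made with affy. Its version and settings are not given in the sources. By their range the deposited values are log2 intensities, with the log base not stated. Probe sets with 1 gene symbol (20393) were kept, and 691 with several and 1606 not listed in the platform's probe table were left out, which left 12394 genes. Members were found by the rule given in the report and tested without a filter on low values. All 18 passed the array median on 2 or more microglia arrays, also counting only arrays the rule did not use, and 15 did in BV-2 cells.

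Comparisons used limma 3.58.1 in R 4.3.3: linear models of group means with empirical Bayes moderation, 24 microglia arrays in 12 groups (12 residual degrees of freedom) and 12 BV-2 arrays in 6 groups (6), with Benjamini-Hochberg adjustment over all genes and a threshold of 0.05. The script was tested on simulated data. Values from WT set 1 were not tested, but they entered the estimate of spread in the microglia fit. Plots used matplotlib 3.10.9 under Python 3.11.15.

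Named were the 10 members with the largest rise in WT set 1, called members, members that kept the shape of the rule, genes next to the thresholds and Usp18. Other members were given by values with what they do. Members and lists were chosen with earlier results of these data known. The replicate numbers in the labels were checked for pairing. Within WT, deviations of same-numbered arrays from their group means correlated at 0.28 to 0.57 between times, in 4 pairs over both sets. This was taken as a hint that the numbers pair the times. The main tests did not use that pairing, and the replicate number entered only as a block among the alternatives. Other lines have 2 pairs each. Alternatives were a filter on low values, renewed quantile normalization, centring on array medians and another choice of probe set. Others were the replicate number as a block, leaving out single arrays or the 3 that stand apart, and a fit without the rule's arrays. That last fit kept the KO arrays, which had helped choose the probe sets.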

Additional observations from a re-analysis of the deposited data

How the results depend on the processing

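Directions turned in BV-2 Usp18 siRNA 24 h against 6 h: without the array that stood apart Ly9 went to 1.227, Lst1 to 1.553 and Lair1 to 0.833 (all below 0 with both 6 h arrays), and without the other 6 h array to -2.07, -1.952 and -1.611. Without the arrays that stand apart signs also turned, in members not called, for 2 in WT set 2 24 h against 0 h, 7 in its 6 h against 0 h, 2 each in C61A 6 h against 0 h and 24 h against 6 h, and 2 in the KO minus WT set 2 response. Numbers below are members called of 18. Leaving out 1 array at a time gave 0 to 1 for KO 24 h against 0 h (0 with all arrays), 0 to 2 for KO 6 h against 0 h (1), 0 to 3 for KO 24 h against 6 h (0), 0 to 0 for C61A 24 h against 0 h (1), 0 to 1 for C61A 6 h against 0 h (0), 0 to 1 for BV-2 Usp18 siRNA 24 h against 0 h (2), 0 to 6 for 24 h against 6 h there (0) and 0 to 1 for Usp18 against control siRNA at 24 h (0). A group left with 1 array is assumed to vary like the others. Centring arrays on their medians gave 0 for KO 6 h and 0 for C61A 24 h against 0 h, and 18 arrays alone gave 0 for the latter. A filter on low values gave 1 for KO 24 h against 6 h and 1 for Usp18 against control siRNA. Without the 3 arrays that stand apart the counts were 2 for KO 24 h against 6 h, and in BV-2 cells 4 for Usp18 siRNA 24 h against 0 h, 1 against 6 h and 2 against control siRNA. The cause of these moves was not tested, beyond fewer arrays where arrays were left out. The counts in this paragraph stand without the share of all genes called in each fit, so nothing is read from their size.

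With the replicate number as a block, random and then fixed, members called were 2 and 2 for KO 24 h against 0 h, 3 and 6 for KO 6 h against 0 h, 7 and 5 for KO 24 h against 6 h, 1 and 2 for WT set 2 24 h against 0 h, 3 and 3 for C61A 24 h against 0 h, 0 and 2 for C61A 24 h against 6 h, 3 and 4 for BV-2 Usp18 siRNA 24 h against 0 h, and 1 and 1 for the KO minus WT set 2 response. In KO, C61A and BV-2 the pairing rests on 2 pairs a line, with correlations of 0.24 to 0.77, and is a hint from the data, not from the design. Same-numbered arrays of different genotypes did not deviate together (KO and WT set 1 -0.12 to -0.09, C61A and WT set 2 -0.43 to -0.03). Those of BV-2 cells with Usp18 and control siRNA did to a degree (0.21 to 0.41). The block was set within each line, so the comparison between the siRNAs did not use that pairing. With crossed numbers, chosen after seeing the data, C61A against WT set 2 at 0 h gave 0 calls. The share of all genes called rose under the block as well, for KO 24 h against 0 h from 2.17% to 9.56% (random) and 10.7% (fixed), KO 6 h from 4.48% to 13.6% and 13.6%, KO 24 h against 6 h from 1.86% to 6.97% and 6.76%, WT set 2 24 h against 0 h from 0.0161% to 0.541% and 3.03%, C61A 24 h against 0 h from 4.76% to 12.7% and 13.7%, C61A 24 h against 6 h from 0.266% to 2.3% and 3.08%, BV-2 Usp18 siRNA 24 h against 0 h from 6.46% to 12.2% and 14.1%, and the KO minus WT set 2 response from 0.0161% to 1.46% and 2.05%. The block changed no other count of calls by over 1.5 times. Precision is limited by 2 arrays a group. Members such as F9, Ppfia4, Arhgap4, St3gal6, Klf2 and Vnn3 lie below the array median on some arrays, where a change is hard to read.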
